A study of Rattus norvegicus with 105 samples.

Results

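The tumour necrosis factor (TNF) superfamily pairs a set of cytokine-like ligands with a set of cell surface receptors. Its members were followed here in rat leg muscle that carried a metal implant. The family was taken as the probe sets whose single annotated symbol begins with Tnfsf or Tnfrsf and a digit, or is Tnf, Lta, Ltb, Ltbr, Fas, Cd40, Cd27 or Cd70. This gave 28 genes, 10 ligands and 18 receptors, of 22954 probe sets tested. No symbol stood on more than 1 probe set. A further 10 symbols of the family in the RefSeq rat gene table, Tnf itself among them, had no named probe set here and were not analysed.

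Male Sprague-Dawley rats, about 30 days old when bought and given at least 2 weeks to acclimate, received 4 pellets in the gastrocnemius, the large calf muscle, with 2 in each hind limb. The pellets were cylinders 1 mm across and 2 mm long of aluminum, cobalt, copper, depleted uranium (DU), iron, nickel, lead or tungsten, or of tantalum. Tantalum served as the surgical control, so those rats carried the surgery and a metal pellet too, and no comparison was made with muscle free of an implant. Muscle was taken after 1, 3, 6 or 12 months, with 8 rats assigned to each metal and month. Each group had 3 Clariom S arrays, and each array was given 250 ng of total RNA pooled from 2 to 3 rats, so the p-values measure the spread between pools and not between animals. There were 35 such groups; nickel at 12 months was not analysed here.

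Ligands of the family, such as lymphotoxin, TRAIL and CD70, are made largely by immune cells and act as trimers, on the cell surface or shed from it. Their receptors fall into those with an intracellular death domain, which can start caspase signalling, and those that bind TRAF adaptor proteins and switch on NF-kappaB. Most receptors without a death domain are best known from lymphocytes, where they act as costimulators. Muscle fibres and other resident cells also carry receptors of the family. Among them are the TNF receptor TNFR1 (Tnfrsf1a), which has a death domain, and the TWEAK receptor Fn14 (Tnfrsf12a), which has none.

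Because many targets of these receptors, and some receptors themselves, are switched on by NF-kappaB, the 250 bases before the start of each gene were searched for the NF-kappaB motif GGGNNNNNCC, the AP-1 motif TGANTCA and the interferon-response motif GAAANNGAAA, on both strands. RefSeq held this stretch for 20 of the 28 members on the GRCr8 build. Those not matched were Tnfrsf14, Cd40, Tnfrsf18, Tnfrsf11a, Tnfrsf11b, Tnfsf4, Tnfsf9 and Tnfsf12. The 3 genes below are shown because the main differences turned on them: both TNF receptors, and Cd27, the receptor of CD70. Capitals mark the NF-kappaB matches on either strand.
Tnfrsf1b, chr5:162387412-162387661, minus strand: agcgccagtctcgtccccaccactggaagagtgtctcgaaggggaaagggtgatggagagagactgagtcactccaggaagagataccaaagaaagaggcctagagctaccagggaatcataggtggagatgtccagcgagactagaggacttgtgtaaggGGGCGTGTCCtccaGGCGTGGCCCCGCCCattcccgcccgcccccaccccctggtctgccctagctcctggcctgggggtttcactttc
Cd27, chr4:159721824-159722073, minus strand: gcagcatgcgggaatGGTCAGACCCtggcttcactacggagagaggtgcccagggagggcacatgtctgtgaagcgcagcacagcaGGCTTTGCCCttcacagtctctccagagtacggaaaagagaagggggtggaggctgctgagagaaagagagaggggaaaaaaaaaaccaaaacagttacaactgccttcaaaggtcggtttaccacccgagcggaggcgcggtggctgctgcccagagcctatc
Tnfrsf1a, chr4:159836869-159837118, plus strand: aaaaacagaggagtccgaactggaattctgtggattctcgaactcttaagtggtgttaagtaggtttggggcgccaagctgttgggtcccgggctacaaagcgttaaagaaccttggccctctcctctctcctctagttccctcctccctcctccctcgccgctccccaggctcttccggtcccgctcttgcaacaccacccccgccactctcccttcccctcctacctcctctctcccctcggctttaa
Tnfrsf1b held 3 NF-kappaB matches, of which the last 2 overlap, with 1 AP-1 and 1 interferon match. Cd27 held 2 NF-kappaB matches and Tnfrsf1a 0. The NF-kappaB letters stood in 11 of the 20 members and in 42.3% of all 33469 stretches of this length in the RefSeq table. The AP-1 letters stood in 3 of 20 members and 6.34% of all, and the interferon letters in 2 of 20 and 3.41%. These are matches of letters only, and binding was not measured.

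All values are log2 levels as deposited. A level of one probe set was never set against that of another, since probes differ in brightness. Array medians lay between 6.36 and 6.54, and each array's control probe sets had a median between 3.85 and 4.35. The mean correlation with the other arrays was lowest for the 3 cobalt arrays at 3 months, 0.970 to 0.976. Genes of mature muscle fibres were bright on every array, their mean lying between 12.71 and 13.46. The lowest means were on single arrays at 6 months. They were 12.71 on aluminum replicate 1, 12.82 on lead replicate 3, 12.945 on tungsten replicate 3 and 13.03 on cobalt replicate 2. Among the members, Cd27, Cd70, Tnfrsf8, Tnfrsf9, Tnfsf11, Tnfsf4 and Tnfsf9 lay among the dimmest 30% of probe sets. Tnfrsf8 exceeded its own array's control median on 15 arrays of the whole series, so its differences rest on signals near background. A difference was called when its p-value from limma, adjusted by the Benjamini-Hochberg method over all 22954 probe sets of that comparison, was below 0.05. On simulated data for cobalt at 3 months, 34 of 100 probe sets changed by 0.5 on the log2 scale were recovered and 93 of 100 changed by 1. Moderate changes could thus often be missed. No other probe set was changed in the simulation, whereas 1254 were called in the real comparison, so these shares need not hold for the data.

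Set against tantalum of the same month, the family changed in few places. Of 868 values, 28 members in 31 comparisons, 12 were called, 7 higher and 5 lower than tantalum. That was 1.38% of the members' values, beside 0.443% over all probe sets. The calls fell on 9 members: Tnfrsf1a at 1 month with lead, aluminum and DU, Tnfsf10 at 1 month with lead, 7 receptors at 3 months with cobalt, and Tnfrsf1b at 3 months with nickel. The other 19 members, 9 of the 10 ligands among them, were called in no comparison, and their differences ranged from -0.83 to 0.65. In 26 of the 31 comparisons no member was called, and 84 values (9.68%, against 7.73% of all probe sets) had an unadjusted p below 0.05. All comparisons of 1 month used the same 3 tantalum arrays, so their values are not independent of each other.

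**Figure D1:**
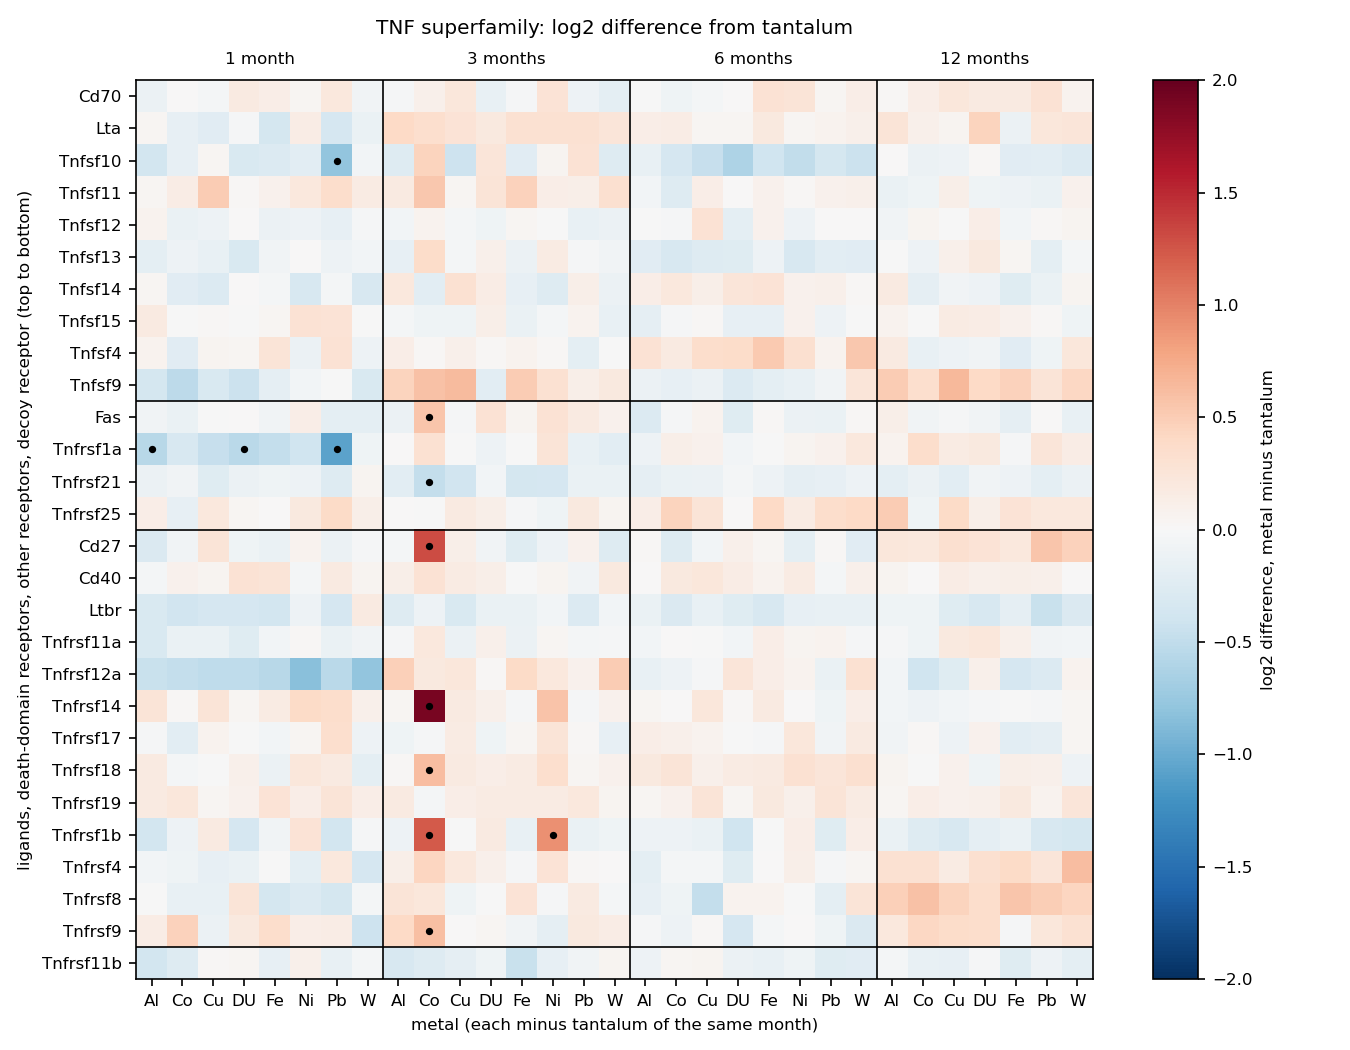
Each cell is the log2 difference of a member (rows, ligands at the top, then death-domain receptors, other receptors and the secreted decoy) between a metal and tantalum of the same month (columns, grouped by month; n = 3 arrays a group). Red is higher and blue lower with the metal, and dots mark the 12 called values. The dots gather in the Tnfrsf1a row at 1 month and in the cobalt column at 3 months.

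Tnfrsf1a, the death-domain receptor through which soluble TNF and lymphotoxin act, was lower at 1 month with lead, aluminum and DU than with tantalum. The fall with lead was the strongest call of the whole array in that comparison. With lead, Tnfrsf1a read 7.16, 6.77 and 7.19, against 8.08, 8.07 and 8.16 with tantalum. Every lead array lay below every tantalum array. The difference was -1.06 ± 0.12 (SE, n = 3 each), a 2.09-fold lower level, with an adjusted p of 3.02e-09 in limma, and it ranked 1 of 22954 by p. It was called with any single lead or tantalum array left out (-0.93 to -1.14), and not when only the 6 arrays of these groups were fitted (adjusted p = 0.0872), a fit in which 4 probe sets were called in all.

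Aluminum arrays read 7.68, 7.39 and 7.57 for Tnfrsf1a. The DU arrays read 7.51, 7.62 and 7.56. Both groups lay wholly below the tantalum arrays and wholly above the lead arrays. The difference from tantalum was -0.56 ± 0.12 with aluminum (adjusted p = 0.0435 in limma) and -0.54 ± 0.12 with DU (adjusted p = 0.0258). These 2 calls were fragile: the aluminum call was lost without any 1 of the 3 aluminum arrays or without tantalum replicate 1 or 3, and the DU call without any 1 of its 6 arrays, while the differences stayed between -0.48 and -0.63 and between -0.51 and -0.57.

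The remaining metals followed an order for Tnfrsf1a at 1 month in which neighbours did not separate. Iron read 7.62, 7.44 and 7.81, copper 7.83, 7.40 and 7.69, and nickel 7.67, 7.68 and 7.78. Cobalt read 7.70, 7.94 and 7.72, and tungsten 8.14, 7.80 and 8.12. Iron, copper, nickel and cobalt arrays all lay below the lowest tantalum array, whereas tungsten overlapped tantalum. The differences from tantalum were -0.48 with iron, -0.46 with copper, -0.39 with nickel, -0.32 with cobalt and -0.09 with tungsten, and none of these 5 was called. In those comparisons 0.131%, 0.322%, 0.797%, 0.00871% and 0.00871% of all probe sets were called, in the same order.

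In the 1-month comparisons, 2 of 28 members were called for lead, against 3.02% of all probe sets, and 1 each for aluminum (0.0261%) and DU (0.244%). Groups that did not overlap were common. With lead 0 members lay wholly above tantalum and 3 wholly below, where 21.6% of all probe sets did not overlap in either direction. The counts were 0 above and 3 below with aluminum, beside 15.4%, and 1 above and 5 below with DU, beside 16.0%. The median member differed by -0.07 with lead, -0.04 with aluminum and -0.00 with DU, beside 0.01 over all probe sets in each. The median member thus lay close to the median probe set, and the calls were those of single genes.

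The tantalum group itself stood high for Tnfrsf1a at 1 month. Its mean of 8.11 ± 0.05 (SD, n = 3) was the highest of all 35 groups, while lead at 1 month, 7.04 ± 0.23, was the lowest. Later tantalum arrays were lower, reading 7.69, 7.69 and 7.80 at 3 months, 7.36, 7.08 and 7.44 at 6 months, and 7.55, 7.17 and 7.11 at 12 months. The mean of the 8 metals lay below tantalum at 1 month by -0.49 ± 0.09 (adjusted p = 0.00218 in limma, where 0.187% of probe sets were called). That call was lost without replicate 2 of each group (-0.45, adjusted p = 0.124) and without replicate 3 (adjusted p = 0.0505).

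Set against the mean of the other 7 metals instead of tantalum, lead still differed, by -0.66 ± 0.09 (adjusted p = 4.41e-06). Aluminum and DU then differed by -0.08 and -0.06 and were not called. Tungsten was higher than the other metals by 0.46 ± 0.09 (adjusted p = 0.00248). Cobalt, copper, iron and nickel took the opposite sign on this scale, 0.19, 0.03, 0.01 and 0.11, and none was called. For every metal but lead this reference included lead, the lowest group at 7.04, and a reference without lead was not tried.

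At the later months Tnfrsf1a with lead was not called. The lead arrays read 7.61, 7.52 and 7.61 at 3 months, 7.61, 7.27 and 7.27 at 6 months, and 7.39, 7.56 and 7.60 at 12 months. At 3 months all 3 lead arrays still lay below the lowest tantalum array, at 7.69. The differences from tantalum were -0.15, 0.09 and 0.24 at these months, and none was called. The difference between lead and tantalum changed over the 4 months by the moderated F test (adjusted p = 8.38e-07, with 0.152% of all probe sets called), a call lost without replicate 2 of each group (adjusted p = 0.0688).

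**Figure D2:**
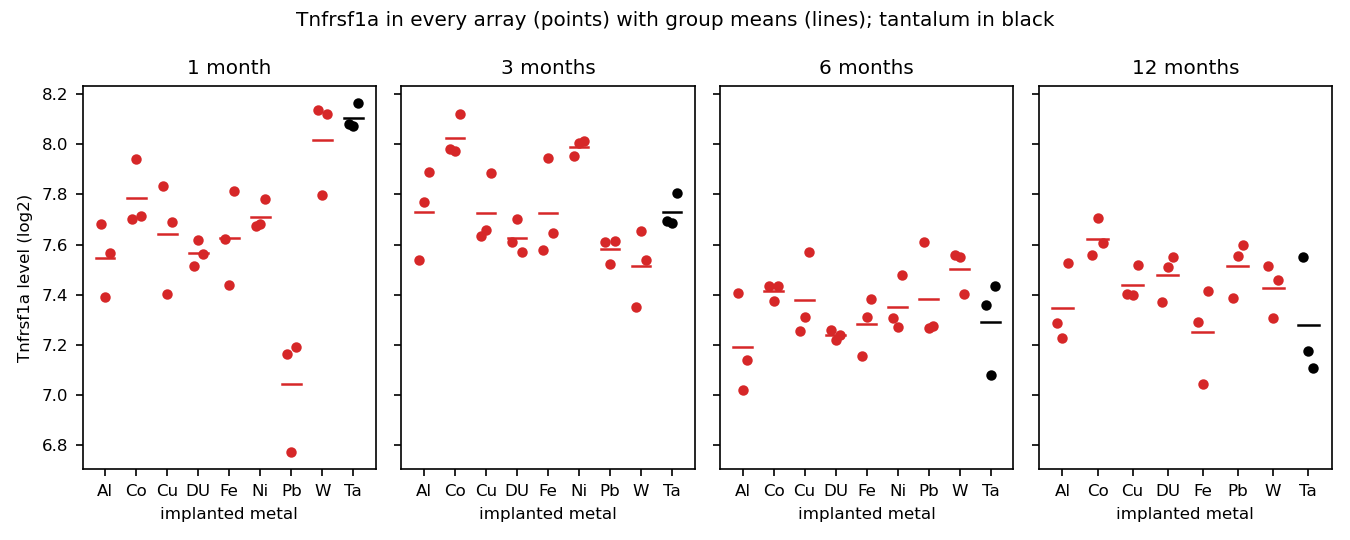
Tnfrsf1a log2 level (vertical axis) on every array (points) with group means (lines), by implanted metal (horizontal axis; tantalum in black at the right) in a panel for each month. At 1 month the lead arrays lie lowest and the tantalum arrays, with tungsten, highest; from 3 months on the lead arrays lie among those of the other metals.

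Tnfsf10, which encodes TRAIL, a ligand that can trigger apoptosis through death receptors, was the other member that was lower with lead at 1 month. The lead arrays read 6.03, 5.96 and 6.59, against 7.11, 6.86 and 6.99 with tantalum. The groups did not overlap, although the third lead array lay well above the other two. The difference was -0.79 ± 0.22 (adjusted p = 0.0348 in limma) against tantalum and -0.60 ± 0.17 (adjusted p = 0.0308) against the other metals. The call against tantalum was kept without lead replicate 3 but lost without any other single array of either group (-0.68 to -0.86). The receptor of TRAIL in rodents, Tnfrsf10b, was not analysed here.

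Tnfrsf12a, or Fn14, the receptor of TWEAK that injured muscle makes, lay lower with all 8 metals than with tantalum at 1 month, by -0.44 to -0.83, but was called for none. The tantalum arrays read 9.37, 9.94 and 8.46, an SD of 0.75 that was the widest of the 35 groups for this gene. The nickel arrays read 8.47, 8.49 and 8.32 and the lead arrays 8.61, 8.71 and 8.83, both overlapping the third tantalum array. Without that array both metals were called, nickel at -1.23 ± 0.26 (adjusted p = 0.00320 in limma) and lead at -0.94 ± 0.26 (adjusted p = 0.0332). Without the second tantalum array neither was called, nickel at -0.49 (adjusted p = 0.662) and lead at -0.20 (adjusted p = 0.762), so single tantalum arrays decided these values. Its ligand Tnfsf12, TWEAK, was called in no comparison and ranged from -0.20 to 0.29 over the 31 differences.

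Around these genes at 1 month, no pan-leukocyte or macrophage marker was called for lead, aluminum or DU. The median macrophage marker differed by -0.24 with lead, -0.48 with aluminum and -0.26 with DU, and the median pan-leukocyte marker by -0.43, -0.78 and -0.16 in the same order. The mean macrophage level was 6.86, 6.92 and 7.29 on lead arrays, against 7.07, 6.94 and 7.82 on tantalum arrays, and the groups overlapped. With lead, 2 of 7 B and plasma cell markers, Pax5 (0.57 ± 0.16) and Blk (0.68 ± 0.18), and 1 of 4 dendritic cell markers, Clec9a (0.71 ± 0.21), rose. Of all probe sets, 1.29% were called higher in that comparison. The part of these cells in the Tnfrsf1a values was not tested, and in whole muscle fewer cells of a type and less RNA per cell cannot be told apart. Of 19 adaptors and kinases of TNF receptors, 1 was called with lead, where 3.02% of all probe sets were called. It was Cyld, a deubiquitinase that restrains NF-kappaB, which fell by 0.57 ± 0.15 (adjusted p = 0.0270 in limma). None of the measured NF-kappaB subunits, NF-kappaB-induced genes or death regulators was called with lead, aluminum or DU at that month.

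At 3 months, cobalt gave the broadest change in the family. The receptors Tnfrsf14, Cd27, Tnfrsf1b, Tnfrsf18, Tnfrsf9 and Fas rose over tantalum and Tnfrsf21 fell, while none of the 10 ligands was called. With nickel only Tnfrsf1b was called. That made 7 of 28 members with cobalt (25%, beside 5.46% of all probe sets, of which 4.87% higher and 0.588% lower) and 1 of 28 with nickel (3.57%, beside 3.42%). The median member differed by 0.26 with cobalt, beside -0.05 over all probe sets, and by 0.09 with nickel, beside -0.02. Cobalt at 3 months held the highest of the 35 group means for 10 of the 28 members, beside 8.45% of all probe sets.

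Tnfrsf14, or HVEM, the receptor of LIGHT that also binds the inhibitory receptor BTLA, gave the largest difference. The cobalt arrays read 8.34, 8.54 and 8.62, against 6.56, 6.74 and 6.50 with tantalum. No cobalt array came within 1 log2 unit of a tantalum array. The rise was 1.90 ± 0.19, or 3.74-fold (adjusted p = 6.57e-13 in limma). Nickel arrays, at 7.19, 7.47 and 6.85, lay above all 3 tantalum arrays and below all 3 cobalt arrays, and their difference from tantalum of 0.57 ± 0.19 was not called (adjusted p = 0.0851).

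Its ligand Tnfsf14, or LIGHT, was not called. The cobalt arrays read 6.34, 6.13 and 6.18, against 6.24, 6.43 and 6.63 with tantalum, and the difference was -0.22 ± 0.17 (adjusted p = 0.606). Ltbr, the lymphotoxin-beta receptor and the other receptor of LIGHT, read 6.84, 6.68 and 6.56 with cobalt, against 6.97, 6.51 and 6.91 with tantalum (-0.11 ± 0.18, adjusted p = 0.845). For both genes the groups overlapped.

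Cd27, the costimulatory receptor of T and B cells that binds CD70, read 6.65, 6.53 and 6.54 with cobalt, against 5.45, 5.22 and 5.15 with tantalum. The groups lay more than 1 log2 unit apart at their nearest arrays. The rise was 1.30 ± 0.20, or 2.46-fold (adjusted p = 5.84e-07 in limma). Nickel arrays read 5.50, 4.76 and 5.26, scattered across the tantalum range. Cd70, its ligand, read 4.89, 4.89 and 5.00 with cobalt, against 5.22, 4.75 and 4.48 with tantalum, and differed by 0.11 ± 0.17 (adjusted p = 0.833).

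Tnfrsf1b, or TNFR2, the TNF receptor without a death domain that is carried mainly by leukocytes and endothelium, rose with both metals. It read 8.25, 8.14 and 8.25 with cobalt and 7.84, 8.14 and 7.72 with nickel, against 7.05, 7.04 and 6.89 with tantalum. Every array of both metals lay above every tantalum array. The rise was 1.22 ± 0.17 with cobalt (adjusted p = 4.63e-08 in limma), a 2.34-fold higher level, and 0.91 ± 0.17 with nickel (adjusted p = 0.000177), 1.88-fold higher. The other TNF receptor, Tnfrsf1a, read 7.98, 7.97 and 8.12 with cobalt and 7.95, 8.01 and 8.01 with nickel, against 7.69, 7.69 and 7.80 with tantalum. Those arrays too lay above tantalum, but the differences of 0.30 ± 0.12 (adjusted p = 0.161) and 0.26 ± 0.12 (adjusted p = 0.290) were not called. Against the mean of the other metals, Tnfrsf1a was called with cobalt (0.33 ± 0.09, adjusted p = 0.00913 in limma) and with nickel (0.29 ± 0.09, adjusted p = 0.0488). Lta, lymphotoxin alpha, a ligand of both TNF receptors, read 5.80, 5.60 and 5.60 with cobalt, against 5.39, 5.53 and 5.08 with tantalum (0.33 ± 0.18, adjusted p = 0.380).

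Further costimulatory receptors rose by less. Tnfrsf18, or GITR, prominent on regulatory T cells, read 7.79, 7.52 and 7.59 with cobalt, against 6.94, 7.04 and 7.07 with tantalum, and rose by 0.61 ± 0.15 (adjusted p = 0.00441 in limma). Tnfrsf9, or 4-1BB, a receptor of activated T and NK cells, read 5.98, 5.35 and 5.54 with cobalt, against 5.02, 5.00 and 5.04 with tantalum, and rose by 0.60 ± 0.19 (adjusted p = 0.0412). In both the groups did not overlap, and for Tnfrsf9 the tantalum arrays lay close together (SD 0.019). Tnfrsf4, or OX40, another receptor of activated T cells, read 6.99, 7.03 and 6.87 with cobalt, against 6.54, 6.59 and 6.49 with tantalum, again without overlap, but its 0.42 ± 0.15 was not called (adjusted p = 0.0871). The ligand of 4-1BB, Tnfsf9, differed by 0.58 ± 0.22 (adjusted p = 0.137), and that of OX40, Tnfsf4, by 0.03.

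The death-domain receptors Fas and Tnfrsf21 were called in opposite directions with cobalt. Fas, which starts apoptosis when bound by Fas ligand, read 6.49, 6.32 and 6.65, against 5.89, 6.05 and 5.85 with tantalum, and rose by 0.56 ± 0.17 (adjusted p = 0.0337 in limma). Tnfrsf21, or death receptor 6, read 8.74, 8.61 and 8.54, against 9.14, 9.07 and 9.13 with tantalum, and fell by 0.48 ± 0.12 (adjusted p = 0.00510). Neither pair of groups overlapped. For Tnfrsf21 the tantalum mean at 3 months, 9.11, was the highest of the 35 groups. Against the mean of the other metals, Tnfrsf21 with cobalt differed by -0.25 ± 0.09 and was not called (adjusted p = 0.0791 in limma). Fas was still called against that reference (0.45 ± 0.13, adjusted p = 0.0142). Nickel arrays of Tnfrsf21 read 8.66, 8.70 and 8.97, also wholly below tantalum, with a difference of -0.34 ± 0.12 that was not called (adjusted p = 0.132). Tnfrsf25, or DR3, whose ligand is TL1A (Tnfsf15), differed by -0.00 with cobalt and TL1A by -0.09.

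**Figure D3:**
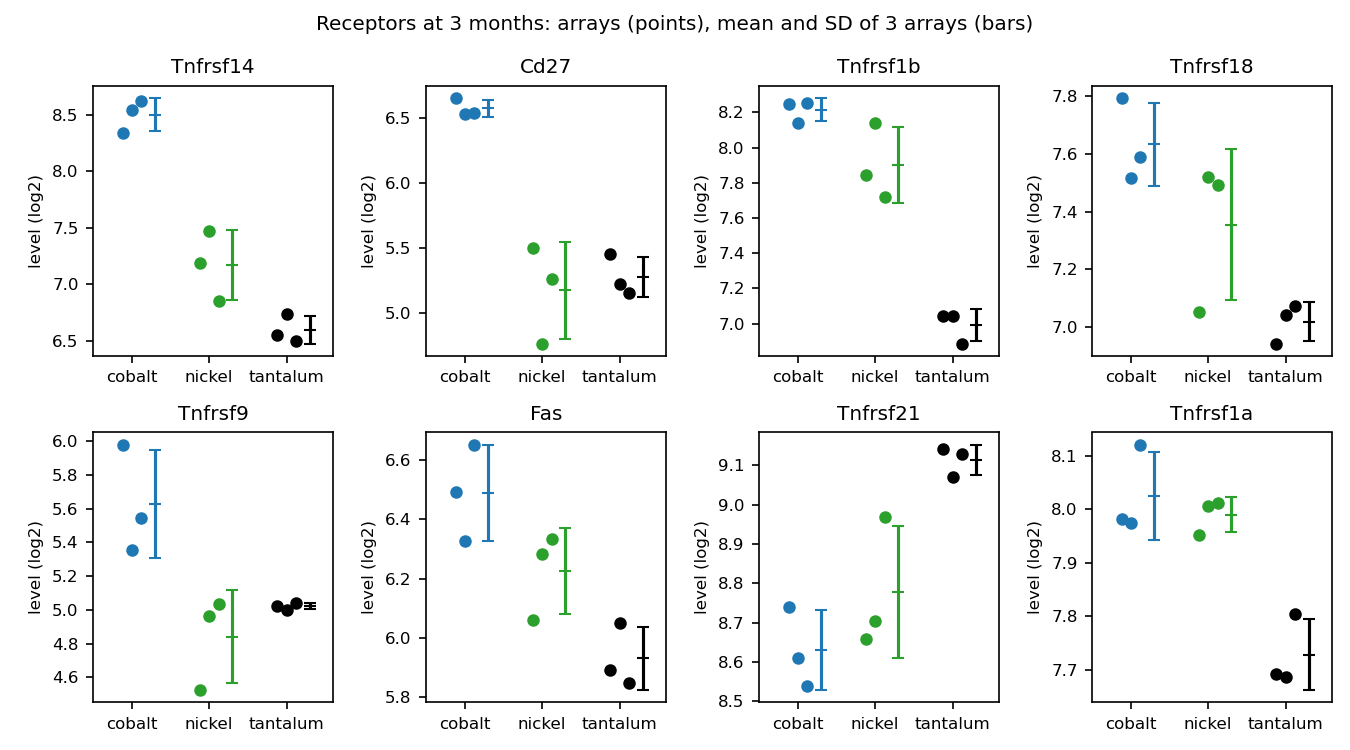
Log2 level (vertical axes, a different range in each panel) of 8 receptors at 3 months on cobalt, nickel and tantalum arrays (points), with the mean and SD of 3 arrays (bars). Cobalt lies apart from tantalum in all 8 panels, above it except for Tnfrsf21. By group mean, nickel lies nearer cobalt for Tnfrsf1b, Tnfrsf1a and Tnfrsf21, and by a small margin for Tnfrsf18 and Fas. It lies nearer tantalum for Tnfrsf14 and Tnfrsf9 and around tantalum for Cd27.

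The remaining members were not called at 3 months with either metal. TRAIL (Tnfsf10) read 7.05, 7.07 and 6.93 with cobalt, against 6.52, 6.68 and 6.53 with tantalum, without overlap (0.44 ± 0.22, adjusted p = 0.335). APRIL (Tnfsf13), a survival factor of plasma cells, read 7.06, 6.92 and 7.52 with cobalt, against 6.73, 6.78 and 6.91 with tantalum (0.36 ± 0.16, adjusted p = 0.248), while its receptor BCMA (Tnfrsf17) differed by -0.03. On the bone axis, RANKL (Tnfsf11), which drives osteoclast formation, read 5.57, 4.54 and 5.28 with cobalt, against 4.71, 4.68 and 4.40 with tantalum, with overlap (0.53 ± 0.23, adjusted p = 0.218). Its receptor RANK (Tnfrsf11a) differed by 0.21, and osteoprotegerin (Tnfrsf11b), the secreted decoy that binds RANKL, by -0.26. Fn14 differed by 0.19, TWEAK by 0.07, CD40 by 0.29, CD30 (Tnfrsf8) by 0.23 and Tnfrsf19 by -0.05. With cobalt 12 members lay wholly above tantalum and 2 wholly below, where 26.2% of all probe sets did not overlap.

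The calls differed in how far they rested on single arrays. Tnfrsf14, Cd27 and Tnfrsf1b with cobalt, and Tnfrsf1b with nickel, were called with any 1 array left out. The number of members called with cobalt was 4 without replicate 1 (Cd27, Tnfrsf14, Tnfrsf1b and Tnfrsf21) and 4 without replicate 3 (Cd27, Tnfrsf14, Tnfrsf1b and Tnfrsf18). Tnfrsf9 was called without cobalt replicate 2 but not without any other single array (0.43 to 0.64 there). The Fas call did not survive the removal of replicate 1 or of replicate 3 from either group (0.48 to 0.56).

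Genes listed as downstream of these receptors were higher in part, but signalling through the receptors was not measured. Of all probe sets, 4.87% were called higher with cobalt. With cobalt 7 of 18 genes known to be induced through NF-kappaB rose and 0 fell, with a median of 0.40, led by Bcl2a1, an anti-apoptotic BCL2 relative (1.98 ± 0.26), the adhesion molecule Vcam1 (1.85 ± 0.23), the monocyte chemokine Ccl2 (1.80 ± 0.25) and the transcription factor Irf1 (1.31 ± 0.20). Of 7 NF-kappaB subunits and inhibitors, Nfkb1 (0.39 ± 0.10) and Nfkb2 (0.36 ± 0.11) rose. Of 19 receptor adaptors and kinases, Birc3 (1.10 ± 0.18), a ubiquitin ligase of the TNF receptor complex, and Traf1 (0.68 ± 0.16) rose. Among 10 caspases and death regulators Casp8 (1.01 ± 0.16), Bid (0.91 ± 0.16), Ripk3 (0.61 ± 0.16) and Apaf1 (0.57 ± 0.15) rose, Casp8 being the caspase that death receptors recruit. Of 8 osteoclast and giant cell genes downstream of RANK, Acp5 alone rose (1.10 ± 0.19), and of 5 family genes outside the symbol rule, Cd40lg, the ligand of CD40, did (0.88 ± 0.22). None of 5 sheddases and their regulators or 5 muscle atrophy ubiquitin ligases was called.

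With nickel, 4 of the 18 NF-kappaB-induced genes rose, with a median of 0.43: Ccl2 (1.60 ± 0.25), Bcl2a1 (1.27 ± 0.26), Cxcl2, a neutrophil chemokine (1.16 ± 0.20), and Vcam1 (1.12 ± 0.23). Bid (0.64 ± 0.16) and Acp5 (0.63 ± 0.19) rose as well, and none of the adaptors or NF-kappaB subunits was called. Of all probe sets, 2.82% were called higher with nickel.

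Markers of immune cells moved with both metals, where 4.87% of all probe sets were called higher with cobalt and 2.82% with nickel. With cobalt all 12 measured T cell markers rose (median 1.35), as did 6 of 8 NK and cytotoxic markers, 6 of 7 B and plasma cell markers (1.26), 11 of 13 macrophage markers (1.14), 3 of 4 dendritic cell markers (0.99) and 4 of 4 pan-leukocyte markers (2.39). With nickel 9 of 13 macrophage markers rose (median 0.86) and 2 of 12 T cell markers (0.30), with 2 of 8 NK, 2 of 7 B and 3 of 4 pan-leukocyte markers. Neutrophil, endothelial and muscle fibre markers were not called with cobalt. Of 6 fibroblast markers 4 rose with nickel and 0 with cobalt. The mean T cell marker level was 6.99, 6.98 and 7.16 with cobalt and 6.01, 6.04 and 5.84 with nickel, against 5.73, 5.60 and 5.58 with tantalum. The mean macrophage level was 8.25, 8.16 and 8.75 with cobalt and 8.20, 8.27 and 7.92 with nickel, against 7.12, 7.48 and 7.06 with tantalum. Cobalt arrays lay well above nickel arrays for T cell markers and overlapped them for macrophage markers. The part of these cells in the values of the receptors, or of the genes listed as downstream of them, was not tested. The fibre mean lay between 13.27 and 13.46 on all 9 arrays.

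Cobalt and nickel were then compared directly at 3 months. Cd27 was higher with cobalt than with nickel by 1.40 ± 0.20 (adjusted p = 2.68e-07 in limma), Tnfrsf14 by 1.33 ± 0.19 (adjusted p = 3.49e-07) and Tnfrsf9 by 0.78 ± 0.19 (adjusted p = 0.00684). These were 3 of 28 members (10.7%), beside 2.2% of all probe sets. Tnfrsf1b, called with each metal, differed by 0.32 ± 0.17 (adjusted p = 0.655), and Tnfrsf18 by 0.28, so no difference between the metals was shown for either. Cd40lg (1.13 ± 0.22), Irf1 (0.94 ± 0.20), Birc3 (0.83 ± 0.18) and Casp8 (0.82 ± 0.16) were also higher with cobalt and Cxcl2 lower (-1.12 ± 0.20). Among the markers, 4 of 4 pan-leukocyte, 9 of 12 T cell, 5 of 8 NK cell, 3 of 7 B and plasma cell (Cr2 by 2.84) and 2 of 4 dendritic cell markers were higher with cobalt, and 0 of 13 for macrophages were called. Lower with cobalt were 1 of 7 neutrophil markers (S100a9, -0.80), 1 of 6 fibroblast markers (Lum, -0.97) and 1 of 5 muscle precursor markers (Myf5, -1.13). The Tnfrsf9 call was lost without replicate 1 of each group (0.45) and without replicate 3 (0.92).

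The 3 largest cobalt differences were called at 3 months and at no other month. Against tantalum, Tnfrsf14 differed by 0.03, 1.90, 0.00 and -0.10 at 1, 3, 6 and 12 months. Cd27 differed by -0.08, 1.30, -0.26 and 0.22, and Tnfrsf1b by -0.10, 1.22, -0.10 and -0.26. The cobalt difference changed between months for 4 members by the moderated F test, against 4.18% of all probe sets: Tnfrsf14 (adjusted p = 4.86e-09), Tnfrsf1b (2.87e-06), Cd27 (9.29e-05) and Tnfrsf1a (0.0163). Without replicate 2 of each group 2 of these, Tnfrsf14 and Tnfrsf1b, were called. For Tnfrsf1a the unadjusted p of this test was below 0.05 with every other metal too, all set against the same tantalum arrays. At 6 months limma called no probe set of the array for any metal, and 0 to 3 members of each comparison had an unadjusted p below 0.05. At 12 months no member was called, and 2 to 4 members of each comparison had such a p.

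Averaged over the months, Tnfrsf14 with cobalt (0.46 ± 0.10, adjusted p = 0.00196), Tnfrsf9 with cobalt (0.35 ± 0.10, adjusted p = 0.0440) and Tnfrsf1b with nickel (0.44 ± 0.10, adjusted p = 0.00444) were called. All probe sets were called at 1.15% for cobalt and 2.83% for nickel. Each of these 3 calls was lost in at least 1 of the fits that left out a replicate number: Tnfrsf14 and Tnfrsf1b without replicate 1 or 2, and Tnfrsf9 without any. The means take in the 6- and 12-month arrays, and in 13 of the comparisons at those months arrays of the same replicate number deviated together. With replicate number as a block, nickel had 4 members called, Tnfrsf1b, Tnfrsf14 (0.32), Tnfrsf18 (0.29) and Tnfrsf21 (-0.21). Lead then had 4, Ltbr (-0.30), Tnfrsf1a (-0.22), Tnfrsf21 (-0.19) and Tnfrsf25 (0.28), against 0 without the block. Cobalt had 3, with Tnfrsf21 (-0.20) added, and copper 1, Tnfrsf21 (-0.24).

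Some members kept 1 sign across nearly all comparisons with tantalum. Ltbr lay below tantalum in 30 of 31 and Tnfrsf21 in 30 of 31, while Tnfrsf19, an orphan receptor, lay above it in 30 of 31; of these values 1 was called, Tnfrsf21 with cobalt at 3 months. The comparisons of a month share their tantalum arrays, so these counts are not independent. The lowest Ltbr mean of the 35 groups, 6.03, was that of lead at 12 months, where the arrays read 5.90, 5.99 and 6.18, against 6.49, 6.58 and 6.35 with tantalum, without overlap (-0.45 ± 0.18, adjusted p = 0.682). The highest, 7.20, was that of tungsten at 1 month. Tnfrsf4 with tungsten at 12 months averaged 6.93 ± 0.07, against 6.31 ± 0.25 with tantalum (SD, n = 3 each), also without overlap (0.62 ± 0.15, adjusted p = 0.585).

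Over all 35 groups, 15 of 28 members varied by the moderated F test, against 39.2% of all probe sets. Tnfrsf14 had the widest range of group means at 1.99, followed by Tnfrsf1b at 1.77, Cd27 at 1.74, Ltbr at 1.18 and Tnfrsf1a at 1.06. Tnfrsf1b was lowest with DU at 6 months (6.45) and highest with cobalt at 3 months (8.21). Tnfrsf19 (0.449), Tnfsf15 (0.450), Cd40 (0.462) and Cd70 (0.468) had the narrowest ranges.

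Averaged over metals, several members were lower late than early. Taken as the mean over the 8 metals measured at all 4 months, tantalum included and nickel left out, 12 members were called at 12 months against 1 month, 11 lower and 1 higher. That was 42.9% of the members, 39.3% lower, beside 44.1% of all probe sets, 20.7% lower. The share of members called was thus close to that of all probe sets. The median difference was -0.06 for the members and 0.02 over all probe sets. Time since implantation, the age of the rats and any difference in handling between months cannot be told apart. Markers of several cell types were also lower at 12 months than at 1 month: 8 of 8 endothelial markers (Cdh5 by -0.63), 6 of 6 fibroblast markers (Col1a1 by -2.39, Col3a1 by -1.81), 9 of 13 macrophage markers (Lyz2 by -0.88) and 3 of 4 pan-leukocyte markers. Of 12 T cell markers 0 were called. The mean fibroblast marker level ran from 8.77 to 9.63 on 12-month arrays and from 10.05 to 11.50 on 1-month arrays, without overlap. The part of these cells in the members' values was not tested.

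The largest fall was in Ltbr, whose mean level was 6.79, 6.64, 6.41 and 6.27 at 1, 3, 6 and 12 months. The 12-month difference was -0.52 ± 0.06 (adjusted p = 7.28e-11 in limma), and 0 of 8 metals were higher at 12 months than at 1. Tnfrsf1b had means of 7.21, 7.11, 6.74 and 6.74 and fell by 0.48 ± 0.06, again with 0 of 8 metals higher. Tnfrsf21 had means of 8.87, 8.89, 8.49 and 8.41 and fell by 0.46 ± 0.04, also with 0 of 8. Tnfrsf1a had means of 7.67, 7.71, 7.34 and 7.42, with a 12-month difference of -0.25 ± 0.04. Lead was the 1 of 8 metals with a higher 12-month level, with a mean of 7.51 at 12 months, against 7.04 at 1 month.

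The other 7 that fell by 12 months were the ligands Tnfsf13 (-0.38 ± 0.06) and Tnfsf10 (-0.33 ± 0.08) and the receptors Tnfrsf11b (-0.32 ± 0.07), Tnfrsf12a (-0.28 ± 0.09), Tnfrsf11a (-0.24 ± 0.06), Fas (-0.22 ± 0.06) and Tnfrsf19 (-0.20 ± 0.06). Their means at 1 month were 6.92, 6.75, 6.67, 8.78, 5.75, 6.14 and 6.68 in that order, and at 12 months 6.55, 6.41, 6.35, 8.51, 5.51, 5.92 and 6.47. Tnfrsf18 went the other way. Its means were 6.91, 7.17, 7.05 and 7.21, a rise of 0.30 ± 0.05 by 12 months, and 8 of 8 metals were higher then than at 1 month. Without cobalt the same 12 members were called. Leaving out replicate 1 of each group ended the calls of Tnfrsf12a (-0.08), Tnfrsf11a (-0.11), Fas (-0.18) and Tnfsf10 (-0.20). Without replicate 2 Tnfrsf12a was not called (-0.29), nor was Tnfrsf19 without replicate 3 (-0.14).

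At 6 months against 1 month 10 members were called (35.7%), a share close to the 36.8% of all probe sets. Tnfrsf1b, Ltbr, Tnfrsf21, Tnfrsf1a, Tnfrsf12a, Tnfsf13, Tnfsf10 and Tnfrsf19 fell, by 0.47 to 0.19, and Tnfrsf25 (0.16) and Tnfrsf18 (0.14) rose. Leaving out cobalt, neither was called, Tnfrsf25 at 0.09 (adjusted p = 0.248 in limma) and Tnfrsf18 at 0.12 (adjusted p = 0.102), while osteoprotegerin was, for 9 members in all. Both calls were also lost without replicate 1 and without replicate 2, and those of Tnfrsf12a, Tnfrsf19 and Tnfsf10 without replicate 1.

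At 3 months against 1 month 7 members were called (25%), against 20.1% of all probe sets. RANKL rose by 0.44 ± 0.08, its mean reaching 4.84 at 3 months, against 4.40 at 1 month, and was at 4.35 and 4.36 at 6 and 12 months. Cd27 (0.32), Tnfrsf18 (0.26), Tnfrsf14 (0.22), Tnfsf12 (0.16) and Tnfrsf25 (0.15) rose too, and osteoprotegerin fell by 0.24. Leaving out cobalt, Tnfrsf14 differed by -0.03 and Cd27 by 0.15, and neither was called, while RANKL still rose (0.39). Without cobalt 5 members were called: Tnfsf11 and Tnfrsf18, which rose, and Tnfrsf11b, Tnfrsf1b (-0.26) and Tnfsf10 (-0.25), which fell. Leaving out a replicate number ended the calls of Tnfrsf14, Tnfrsf25 and osteoprotegerin in 2 of 3 fits each and that of Tnfsf12 in 3 of 3.

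**Figure D4:**
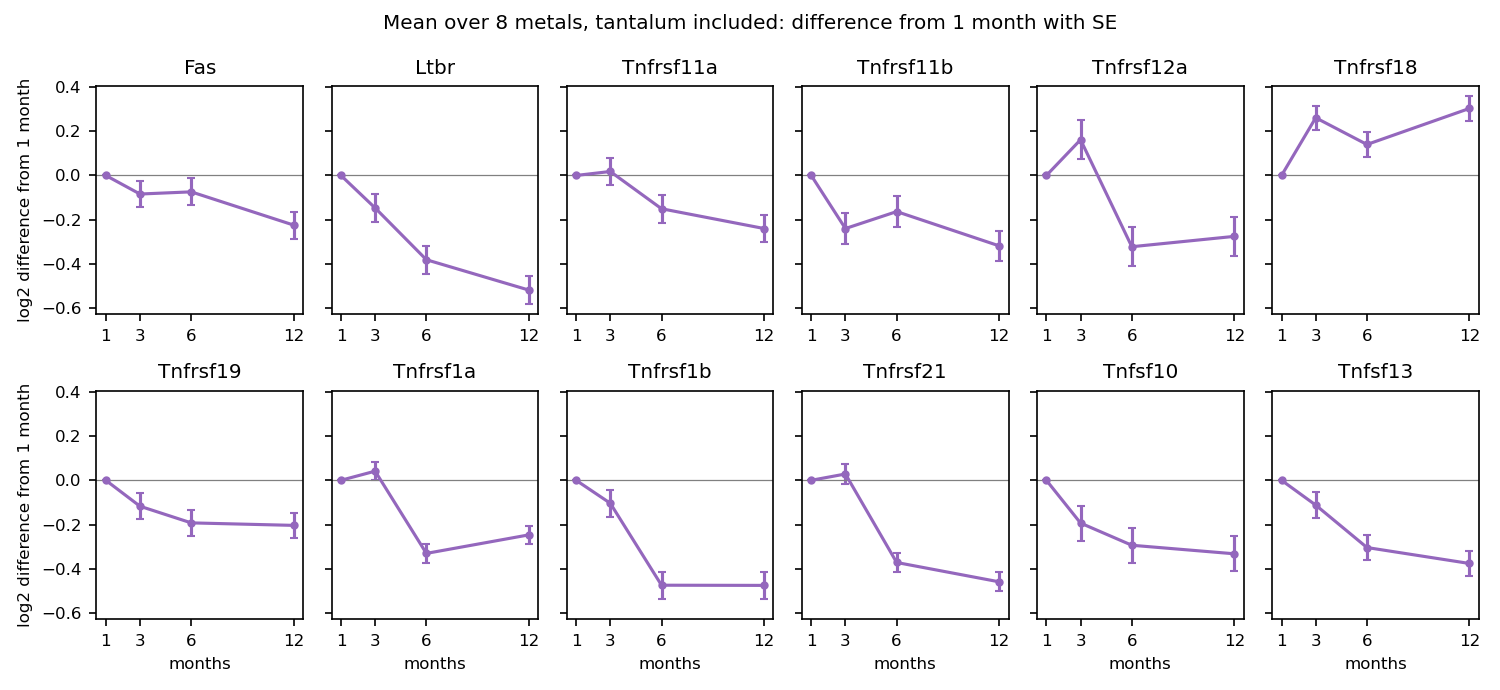
Difference in log2 level from 1 month (vertical axis, with SE) at 3, 6 and 12 months (horizontal axis), as the mean over 8 metals with tantalum included, for the 12 members called at 12 months. Tnfrsf18 alone lies above 0 at 12 months. Tnfrsf1a and Tnfrsf21 lie near 0 at 3 months and below it from 6 months.

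Several of the members are neighbours in the genome. On GRCr8, Cd27, Ltbr and Tnfrsf1a follow each other on chromosome 4 with 1 protein-coding gene between each pair, and Tnfrsf1b and Tnfrsf8 lie side by side on chromosome 5, as do Tnfrsf4 and Tnfrsf18. Against tantalum, neighbours did not share their calls with cobalt at 3 months or with lead at 1 month. With cobalt at 3 months Cd27 was called while Ltbr (-0.11) and Tnfrsf1a (0.30) were not. Tnfrsf1b was called while Tnfrsf8 (0.23) was not, and Tnfrsf18 was called while Tnfrsf4 (0.42) was not. With lead at 1 month Tnfrsf1a was called, while Ltbr, with a difference of -0.33, and Cd27 were not. Between months, Ltbr and Tnfrsf1a were both called lower at 6 and at 12 months against 1 month.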

How the data were processed

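Expression was measured on Clariom S Rat arrays. Per the submitters' processing notes, which name RMA, the oligo package and R 4.0.1, and by their range, the deposited values are RMA log2 levels; whether all arrays were normalised in 1 run is not given in the sources used here. Replicate numbers and groups came from the sample titles.

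Of 22977 probe sets, 23 controls were left out and 22954 tested; 14855 carried 1 gene symbol and 8099 none. limma 3.58.1 under R 4.3.3 was fitted once over the 105 arrays with a mean for each of 35 groups (70 residual degrees of freedom), and p-values were adjusted by Benjamini-Hochberg over all probe sets of a comparison; differences are metal minus tantalum. The number of arrays limits the precision. The script was tested on simulated data. Members, gene lists and the comparisons shown were chosen with earlier results of these data known. Every member may be named; values by array are given for members called against tantalum and for those set beside them, and up to 4 called genes of each other list. The alternatives tried were a replicate block, other filters, normalizations and variance settings, other array sets, and leaving out arrays. In 13 of 31 comparisons, all at 6 or 12 months, arrays of the same replicate number deviated together, by their correlations over probe sets.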

Additional observations from a re-analysis of the deposited data

Results flagged for a closer look

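The difference from tantalum was not the same at every month for 5 member-and-metal pairs, by limma's moderated F test with Benjamini-Hochberg adjustment. With cobalt these were Tnfrsf14 (adjusted p = 4.86e-09), Tnfrsf1b (2.87e-06), Cd27 (9.29e-05) and Tnfrsf1a (0.0163). The first 3 were called higher at 3 months and at no other month. Tnfrsf1a had an unadjusted p of 0.00053 with cobalt in this test, beside 0.00041 with DU and 0.00067 with nickel, where it was not called. With aluminum, copper, iron and tungsten its unadjusted p was 0.00134, 0.00153, 0.0118 and 0.0442, also not called. All these tests share the tantalum arrays of 1 month, whose Tnfrsf1a mean of 8.11 was the highest of the 35 groups. With lead the pair was Tnfrsf1a (adjusted p = 8.38e-07), which was called lower at 1 month and at no later month. The effects of cobalt and nickel at 3 months differed for Cd27 (1.40, cobalt minus nickel on the log2 scale), Tnfrsf14 (1.33) and Tnfrsf9 (0.78).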

How the results depend on the processing

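Of the called results for single members, 276 values under alternative settings were still called in the same direction, 33 were no longer called and 1 changed sign. These counts include fits between months with the replicate block, whose coding is described below. Leaving out arrays, 120 were still called and 60 were not. Members called at 1 month numbered 1 for aluminum and 0 after a second quantile normalization, with arrays of the same month only, with the 6 arrays only, or against the other metals (0 to 1 leaving out 1 array). For DU the number was 1, and 0 with the same month only, with 6 arrays, against the other metals, and in every fit without 1 array (0 to 0). For lead it was 2, and 1 with the same month only, 0 with 6 arrays and 1 when adjusted over all 31 comparisons (1 to 2 without 1 array). For copper 1 was called, against 0, with the replicate block, without the dimmest 30% of probe sets and with array weights. For iron 1 was called with the block, with weights and over all 31 comparisons. For nickel the number was 2 with the block and 1 with weights (0 to 1 without 1 array), and for tungsten 2 against the other metals.

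At 3 months the 7 members called for cobalt became 3 when adjusted over all 31 comparisons (4 to 8 without 1 array), those for nickel 2 with the block, with the same month only and against the other metals, and 3 with weights (1 to 2), and for copper 1 with weights. Tungsten at 12 months had 1 when adjusted over all 31. As means over months, cobalt had 1 without the dimmest 30% or after quantile normalization (0 to 1 without a replicate). Copper had 1 with the block and with weights. Nickel had 4 with the block and 2 without the dimmest 30% and with weights (0 to 1), and lead 4 with the block and 1 without the dimmest 30%. The mean of all metals at 1 month had 0 to 1 without a replicate. The change between months had 2 to 3 members for cobalt and 0 to 1 for lead without a replicate, 1 for DU with the block, and 1 for nickel with the block, without the dimmest 30%, with trend and robust settings and with weights. Cobalt minus nickel had 1 without the dimmest 30%, where Cd27 and Tnfrsf9 were not tested. Time from 1 to 3 months had 4 to 5 without a replicate. With the block it had 2, but the block was coded within each month against replicate 1. Between months that fit compares the levels fitted for replicate 1 and not the group means. Its count therefore cannot be set against that of the main fit. The cause of the remaining changes was not tested.

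Against the other metals at 1 month, Tnfrsf1a took the opposite sign with cobalt (0.19), copper (0.0295), iron (0.0082), nickel (0.11) and tungsten (0.46), and Tnfrsf12a with lead (0.0466). For these Tnfrsf1a values the reference included lead, the lowest group. Tnfrsf1a with tungsten ranged from -0.147 to 0.0239 leaving out 1 array, turning its sign without tungsten replicate 2. Leaving out cobalt, a setting chosen after seeing the data, turned Tnfrsf14 at 3 months against 1 month to -0.0303. Where replicate numbers deviated together (13 comparisons), 0 members were called with the block or without it; in the other 18 the numbers are only labels, and the means over months take in both kinds. The 7 dimmest members lie nearest to background, which limits what their values can show.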
